A study of Mus musculus with 6 samples.

Results

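The DNA replication and S phase genes are 44 genes that encode the proteins copying the genome: the replicative helicase and its loaders, the sliding clamp, the polymerases, the enzymes that supply deoxynucleotides, and factors that restore chromatin and mend forks. They were taken as listed, and every probe set whose only gene symbol was one of them was used. Of the 44 genes, 43 were measured, by 98 probe sets, out of 18193 genes on the array. Of these, 41 reached log2 5 on at least 1 array and were tested among 9545 genes. Orc1 and Tyms lay below that level on all 6 arrays, and no probe set was listed for Chaf1a alone.

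The cells were resting splenic NK cells (NKC) of 6-week-old ICR mice. One group of 3 mice was wild type (WT) and the other group of 3 was Runx3-/-, lacking Runx3, a transcription factor of cytotoxic lymphocytes. NKC were enriched by negative selection, sorted for DX5, used without stimulation, and read on 1 Affymetrix array per mouse. The series describes the mice as individual, while the sex label of each sample names both sexes. Values are log2 signals as the authors normalised them, and a change is the Runx3-/- mean minus the WT mean. The comparison asks which transcripts depend on Runx3 in these cells, here for the genome-copying machinery.

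Before S phase, the origin recognition complex, Cdc6 and Cdt1 load the ring of Mcm2 to Mcm7 onto DNA, and Cdc45 and the GINS proteins later turn it into a working helicase. Polymerase alpha with primase starts each strand, the Rfc complex loads the PCNA clamp, and polymerases delta and epsilon extend the DNA. Many of these genes are transcribed when a cell leaves G1, through E2F factors that bind near their starts. Most NKC of an unstimulated spleen are not dividing.

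The promoters were read to show what the members share in sequence. RefSeq windows on GRCm38.p6, running from 250 bases before to 50 bases after each start, were available for 37 of the 44 genes. Mcm4, Gins1, Gins2, Rfc2, Pole, Prim2 and Exo1 had no entry. The E2F letters TTTCGCGC, TTTGGCGC or TTTCCCGC, on either strand, stood in 14 of the 37 genes (37.8%), against 2.12% of all 27025 genes with a window and 1.84% of all 32851 windows. The holders were Orc1, Cdc6, Cdt1, Mcm3, Mcm5, Mcm6, Mcm7, Pola1, Pold1, Pole2, Rfc3, Lig1, Dnmt1 and Uhrf1. Base composition was not matched, matches can overlap, and a match is a run of letters, not a shown binding site. Below are 30-base stretches around a match upstream of the start in 9 of them, chosen because they hold a match, to show what it looks like in these genes. They are written 5′ to 3′ in the direction of transcription, with 1 match in capitals. The stretches of Mcm5 and Rfc3 each hold a further match, left partly or wholly in lower case.

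Uhrf1 (chr17:56304117-56304146, + strand): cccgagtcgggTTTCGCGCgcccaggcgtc
Cdc6 (chr11:98908002-98908031, + strand): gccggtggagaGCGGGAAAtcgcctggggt
Mcm5 (chr8:75109345-75109374, + strand): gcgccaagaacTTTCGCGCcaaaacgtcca
Mcm6 (chr1:128359734-128359763, - strand): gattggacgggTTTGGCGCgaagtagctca
Mcm7 (chr5:138172030-138172059, - strand): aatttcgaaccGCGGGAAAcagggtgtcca
Orc1 (chr4:108579416-108579445, + strand): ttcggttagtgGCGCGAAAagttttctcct
Pola1 (chrX:93632275-93632304, - strand): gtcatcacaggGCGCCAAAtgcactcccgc
Rfc3 (chr5:151651200-151651229, - strand): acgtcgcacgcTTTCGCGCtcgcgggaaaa
Dnmt1 (chr9:20952824-20952853, - strand): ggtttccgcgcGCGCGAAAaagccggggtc

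In Orc1, the match began 27 bases before the start, and in Dnmt1 it began 219 bases before it. Cdc6 and Pola1 each carried theirs 138 bases before the start. The matches in capitals are in the reverse orientation in Cdc6, Mcm7, Orc1, Pola1 and Dnmt1. The CCAAT box letters CCAAT stood in 24 of the 37 genes (64.9%), against 41.1% of all genes. The RUNX letters (TGTGGT and its variant TGTGGC, or else TGCGGT and its variant TGCGGC) also stood in 24 of 37 (64.9%), against 48.7% of all genes. For TTTGAA, the letters of the CHR element of mitotic promoters, the share was 5 of 37 (13.5%), against 20.2%.

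Runx3 itself read 7.76, 8.51 and 8.68 on the Runx3-/- arrays and 10.11, 11.56 and 10.73 on the WT arrays, lower by -2.48 with no overlap (limma adjusted p = 0.0565). Whether its probe set lies in the deleted part was not tested. Arrays of the same group correlated at 0.950 to 0.974 over the 9545 genes tested, arrays of different groups at 0.925 to 0.960, and none was a copy of another.

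The 41 tested genes lay slightly above the bulk of the transcriptome, but few passed a test. The thresholds of the study ask for an unadjusted p under 0.05, here from limma, together with a 1.5-fold difference. They were met upward in Runx3-/- by 4 members, Gins2, Rrm2, Uhrf1 and Brca1. Of all 9545 genes, 4.89% met them upward. None of the 41 met them downward, against 8.86% of all genes. None passed a Benjamini-Hochberg (BH) adjusted p under 0.05, against 0.608% of all genes in both directions. The lowest adjusted p among the members was 0.146. Besides the 4 named, only Pola2 had an unadjusted p under 0.05, and its change fell short of 1.5-fold.

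Changes ran from -0.55 to 1.39 with a median of 0.22, beside a median of -0.13 over all genes tested. The change was above 0 in 29 members and below 0 in 12, against 37.8% of all genes above 0. In 10 members the difference reached 1.5-fold upward, and in 0 downward. The share of all genes at 1.5-fold was not counted, so this is not set against the transcriptome. All 3 Runx3-/- arrays lay above all 3 WT arrays in 6 members, against 5.98% of all genes, and below them in 1, against 16.8% of all genes. The median standard error was 0.29 and the median half-width of the 95% confidence interval was 0.68, so that the interval lay within 1.5-fold either way for only 2 members. A miss at the thresholds is therefore no sign of equal levels. In a bulk sample, more dividing cells and more transcript per cell cannot be told apart. The groups were separate mice, and with 3 arrays on each side p-values rest on little replication.

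**Figure D1:**
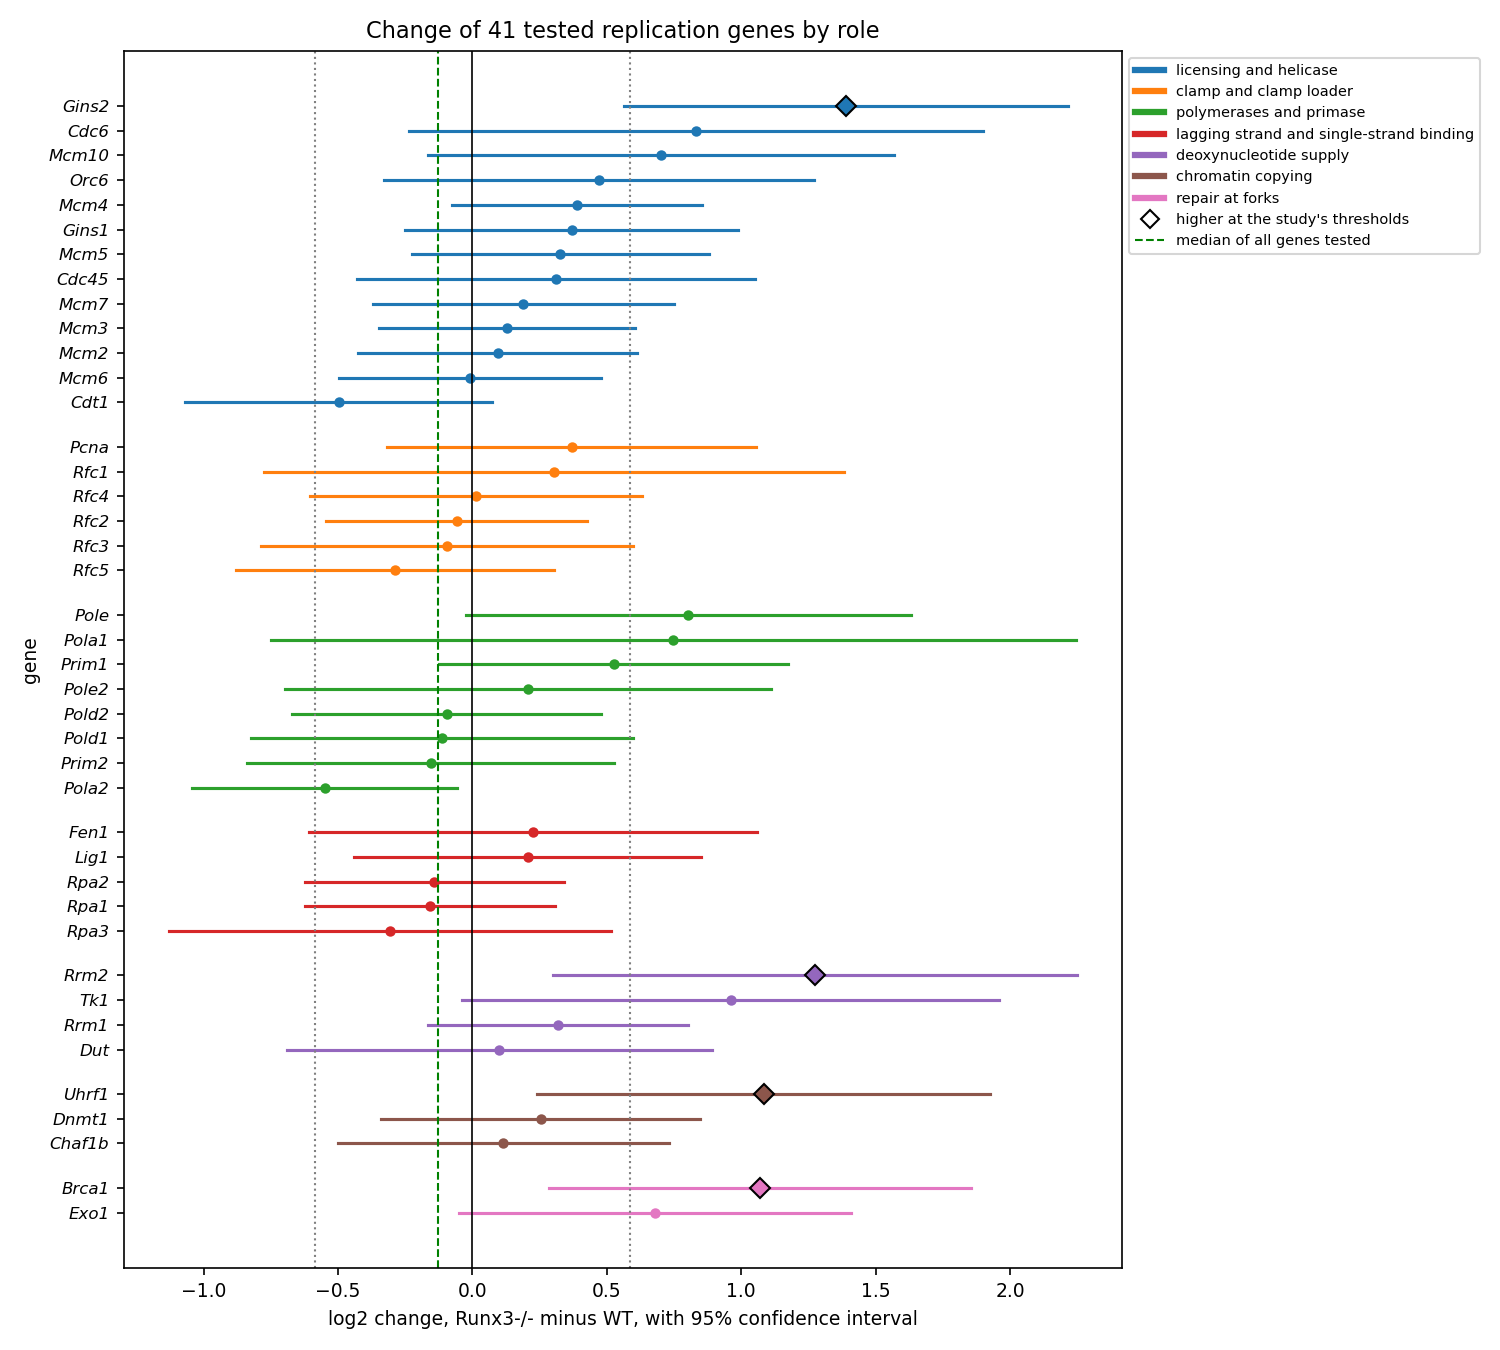
Log2 change (Runx3-/- minus WT, x axis) with its 95% confidence interval for the 41 tested genes (y axis), coloured by role. Dotted lines mark 1.5-fold either way, the dashed line marks the median of all genes tested at -0.13, and diamonds mark the 4 genes higher at the study's thresholds; most intervals cross 0.

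Centring each array on its median moved the median of all genes by over 0.1, from -0.13 to -0.01. The split of all calls then turned from 467 higher and 846 lower to 627 higher and 498 lower. Centring shifts every gene alike, so it leaves the distance of 0.35 between the members' median and that of all genes as it was. With centring 7 members were higher, Pole, Tk1 and Exo1 joining the 4, beside 6.57% of all genes. The changes of Mcm6, Rfc2, Rfc3, Pold1 and Pold2, which lay just below 0, moved above it by that shift.

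Among the 14 licensing and helicase genes, 1 of the 13 tested, Gins2, was higher at the study's thresholds. The median change of the 13 was 0.33. Gins2, a subunit of the GINS complex in the active helicase, read 6.49, 6.43 and 7.50 in Runx3-/- and 5.03, 5.37 and 5.85 in WT. The groups did not overlap, and the change was 1.39 (SE 0.35, 2.62-fold, 95% confidence interval 0.56 to 2.22, limma adjusted p = 0.146). Its second probe set gave a far smaller change of 0.35, with 5.42, 6.02 and 6.43 in Runx3-/- and 5.34, 5.90 and 5.58 in WT, where the groups overlapped. Gins1, of the same complex, changed by 0.37 (adjusted p = 0.517).

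No subunit of the Mcm ring met the thresholds. Mcm5 read 13.27, 13.11 and 13.29 in Runx3-/- and 12.50, 13.21 and 12.99 in WT, a change of 0.33 (adjusted p = 0.52), WT replicate 2 lying inside the Runx3-/- range. Mcm4 was the ring subunit whose groups did not overlap, at 12.15, 12.28 and 12.56 against 12.002, 11.98 and 11.85, a change of 0.39 (adjusted p = 0.381). On its second probe set, with a change of 0.18, the groups overlapped. Mcm2 changed by 0.09 and Mcm7 by 0.19, and neither passed.

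The probe sets of Mcm3 and Mcm6 went opposite ways. Mcm3 gave 11.54, 11.45 and 11.65 in Runx3-/- and 11.16, 11.51 and 11.58 in WT, a change of 0.13, while its other probe sets at log2 5 or more gave changes between -0.09 and 0.03. For Mcm6 the values were 12.28, 12.31 and 12.33 against 12.47, 12.47 and 12.01, a change of -0.01, and a second probe set gave 0.42. On the probe sets used here, both differences were smaller than the SD of the WT arrays, 0.22 for Mcm3 and 0.27 for Mcm6.

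Neither loader of the ring met the thresholds. Cdc6, the ATPase that loads the helicase with Cdt1, read 7.74, 8.07 and 8.78 in Runx3-/- and 6.47, 8.18 and 7.45 in WT, a change of 0.83 (adjusted p = 0.408). Cdt1 read 12.07, 11.37 and 11.46 against 11.99, 12.25 and 12.17, a change of -0.50 (adjusted p = 0.36), and its second probe set gave -0.50 as well. On the probe sets used here, the groups of both genes overlapped through 1 array, WT replicate 2 in Cdc6 and Runx3-/- replicate 1 in Cdt1. On the second probe set of Cdt1 they did not overlap, at 10.10, 9.70 and 10.20 in Runx3-/- and 10.41, 10.45 and 10.64 in WT. Without Runx3-/- replicate 1, the change of Cdt1 was -0.72 and it was lower at the study's thresholds. Mcm10, which helps the helicase start, changed by 0.70 (adjusted p = 0.391), Orc6 of the origin recognition complex by 0.47 (adjusted p = 0.523) and Cdc45 by 0.31 (adjusted p = 0.655). Orc1, the largest subunit of that complex, stayed between 3.24 and 3.40 on the Runx3-/- arrays and between 3.26 and 3.27 on the WT arrays.

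The 6 clamp and clamp loader genes gave no call, with a median change of -0.02. Pcna, the clamp that holds polymerases on DNA, read 13.38, 13.94 and 13.93 in Runx3-/- and 13.59, 12.85 and 13.70 in WT, a change of 0.37 (adjusted p = 0.56) with overlapping groups. Rfc2 read 11.41, 11.03 and 11.08 against 11.04, 11.37 and 11.28, a change of -0.06, while its other probe sets gave 0.11 and 0.15. The other loader subunits ran from -0.29 in Rfc5 to 0.30 in Rfc1.

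The 8 polymerase and primase genes also gave no call, with a median change of 0.06. Within polymerase alpha, the changes of both subunits had opposite signs. Pola1, the catalytic subunit of polymerase alpha, read 8.63, 7.35 and 7.49 in Runx3-/- and 7.68, 7.95 and 5.59 in WT, a change of 0.75 with a standard error of 0.64 (adjusted p = 0.59). Pola2, its accessory subunit, read 9.27, 9.17 and 9.29 against 9.48, 9.95 and 9.95. On the probe sets used here, it was the 1 member with all Runx3-/- arrays below all WT arrays. Its change of -0.55 (1.46-fold lower, limma adjusted p = 0.273) fell short of 1.5-fold. Without WT replicate 1 its change was -0.71, and it was then lower at the study's thresholds.

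Primase, which lays down the RNA primer within the same complex, gave 0.53 for the catalytic Prim1 (adjusted p = 0.391) and -0.16 for Prim2 (adjusted p = 0.82). Prim1 read 9.73, 9.58 and 9.46 in Runx3-/- and 9.32, 9.38 and 8.49 in WT, with no overlap. Its second probe set gave 0.50, with overlapping groups. Pole, the catalytic subunit of polymerase epsilon, read 9.02, 7.78 and 8.37 against 7.37, 8.03 and 7.36, a change of 0.80 (1.74-fold, adjusted p = 0.32), with WT replicate 2 above Runx3-/- replicate 2. Pole2 changed by 0.21. Pold1, the catalytic subunit of polymerase delta, read 11.07, 10.14 and 10.37 against 10.27, 10.94 and 10.71, a change of -0.11, and Pold2 changed by -0.10.

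None of the 5 lagging strand and single-strand binding genes passed, and their median change was -0.14. Rpa1, the large subunit of the single-strand binding protein RPA, read 13.70, 13.33 and 13.58 in Runx3-/- and 13.73, 13.80 and 13.56 in WT, a change of -0.16 (adjusted p = 0.721). Rpa2 changed by -0.14 and Rpa3 by -0.31. The flap nuclease gene Fen1 and the ligase gene Lig1, which finish the lagging strand, changed by 0.22 and 0.20.

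In deoxynucleotide supply 1 of 4 tested genes, Rrm2, was higher at the study's thresholds, and the median change was 0.64. Rrm2, the S phase subunit of ribonucleotide reductase, read 11.26, 11.09 and 11.98 in Runx3-/- and 9.64, 11.05 and 9.83 in WT. WT replicate 2 stood just below the lowest Runx3-/- array, so the groups barely separated. The change was 1.27 (SE 0.42, 2.42-fold, 95% confidence interval 0.30 to 2.25, limma adjusted p = 0.218), and the 3 probe sets gave 1.13 to 1.27. The call was lost when Runx3-/- replicate 3 (a change of 1.002 without it), WT replicate 1 (1.01) or WT replicate 3 (1.10) was left out.

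Rrm1, the large subunit of the same enzyme, changed by 0.32 (adjusted p = 0.477), at 10.11, 9.86 and 10.17 against 9.94, 9.55 and 9.70. Tk1, the thymidine kinase of S phase cells, read 8.40, 8.24 and 9.28 in Runx3-/- and 6.84, 8.25 and 7.95 in WT. Its change of 0.96 (1.95-fold, adjusted p = 0.324) missed the threshold on the unadjusted p, and WT replicate 2 lay level with the lowest Runx3-/- array. Dut, which clears dUTP, changed by 0.10, and Tyms, which makes thymidylate, stayed between 3.53 and 4.04 on all arrays.

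Of the 3 chromatin copying genes tested, Uhrf1 was higher at the study's thresholds. Uhrf1, which recognises hemimethylated DNA behind the fork and recruits the methyltransferase Dnmt1, read 9.99, 9.80 and 10.44 in Runx3-/- and 8.23, 9.53 and 9.22 in WT, with no overlap. The change was 1.08 (SE 0.36, 2.12-fold, 95% confidence interval 0.24 to 1.93, limma adjusted p = 0.224). Without Runx3-/- replicate 3 it was 0.90 and no longer passed. The second probe set of Uhrf1 lay below log2 5 on all arrays. Dnmt1 read 12.50, 12.44 and 12.39 against 11.86, 12.69 and 12.02, a change of 0.25 (adjusted p = 0.651), and Chaf1b, a histone chaperone subunit, changed by 0.12.

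Of the 2 repair genes at forks, Brca1, which protects and repairs broken forks, was higher at the study's thresholds. It read 7.43, 7.15 and 7.50 in Runx3-/- and 6.57, 6.76 and 5.54 in WT, with no overlap. The change was 1.07 (SE 0.34, 2.10-fold, 95% confidence interval 0.29 to 1.86, limma adjusted p = 0.204). It rests on 1 probe set, since the other probe sets of Brca1 lay below log2 5 on all arrays. Exo1, an exonuclease of mismatch repair, read 5.52, 5.32 and 5.91 against 4.46, 5.50 and 4.76, a change of 0.68 (adjusted p = 0.338). Some WT values lay below log2 5, and with those raised to 5 the difference was at least 1.34-fold.

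**Figure D2:**
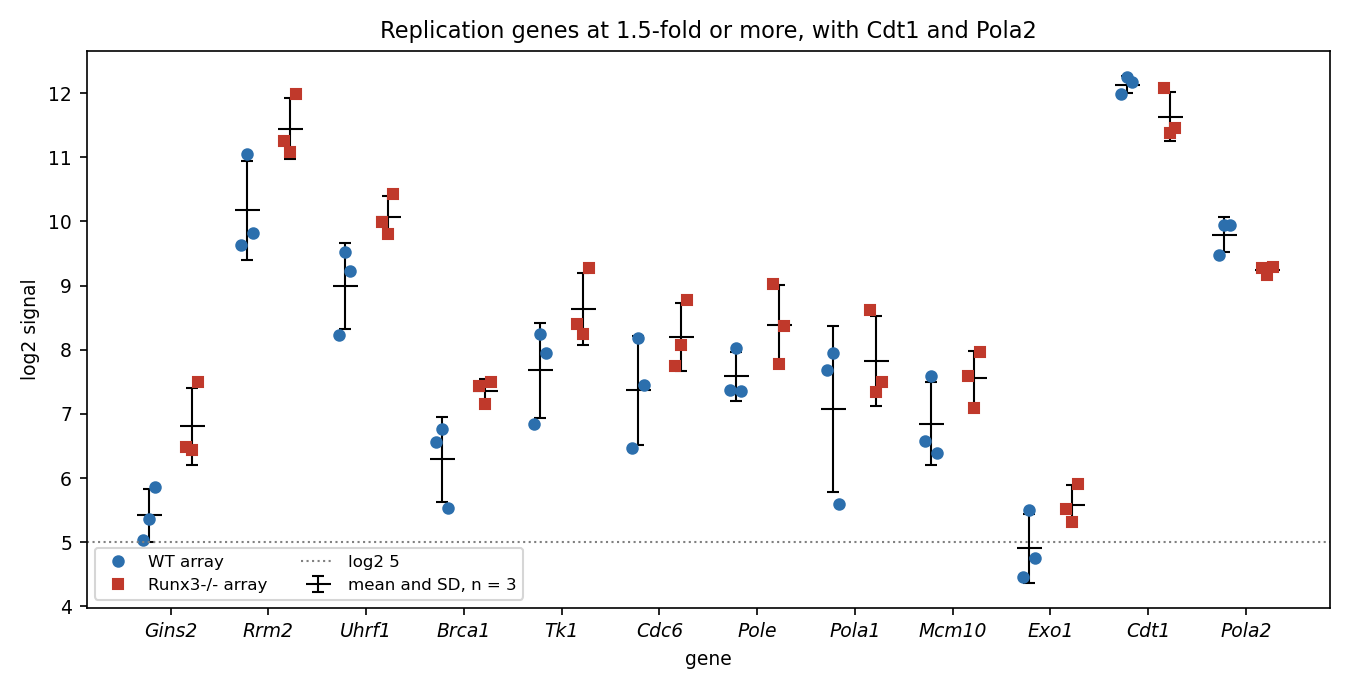
Log2 signal on each array (y axis) for the 10 genes at 1.5-fold or more upward and for Cdt1 and Pola2 (x axis), WT arrays as circles and Runx3-/- arrays as squares, with the mean and SD of each group (n = 3). Gins2, Rrm2, Uhrf1 and Brca1 separate the groups upward, Pola2 separates them downward, and the groups of the others overlap.

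The 3 higher genes with a promoter entry are shown as the 200 bases before each annotated start (GRCm38.p6), with E2F and CCAAT letters on either strand in capitals. Uhrf1 has an entry for each of 2 annotated starts. They are shown because CCAAT stood in all 3 genes, while the E2F letters stood in 1 and the RUNX letters in 2, counted over the windows of each gene.

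Rrm2 (chr12:24708054-24708253, + strand): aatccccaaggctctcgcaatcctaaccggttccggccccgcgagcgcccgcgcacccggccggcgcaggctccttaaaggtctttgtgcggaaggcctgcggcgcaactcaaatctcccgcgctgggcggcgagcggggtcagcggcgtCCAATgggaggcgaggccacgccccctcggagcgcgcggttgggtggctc
Uhrf1, upstream start (chr17:56303137-56303336, + strand): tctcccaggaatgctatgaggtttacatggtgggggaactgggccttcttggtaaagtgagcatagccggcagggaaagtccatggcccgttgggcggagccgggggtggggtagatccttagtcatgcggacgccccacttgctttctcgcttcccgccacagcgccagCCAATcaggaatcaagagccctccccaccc
Uhrf1, downstream start (chr17:56304113-56304312, + strand): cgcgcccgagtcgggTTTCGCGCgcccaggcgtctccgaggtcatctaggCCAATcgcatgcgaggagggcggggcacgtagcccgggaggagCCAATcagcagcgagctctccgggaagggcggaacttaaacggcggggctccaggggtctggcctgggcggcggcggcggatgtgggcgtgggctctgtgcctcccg
Brca1 (chr11:101551956-101552155, - strand): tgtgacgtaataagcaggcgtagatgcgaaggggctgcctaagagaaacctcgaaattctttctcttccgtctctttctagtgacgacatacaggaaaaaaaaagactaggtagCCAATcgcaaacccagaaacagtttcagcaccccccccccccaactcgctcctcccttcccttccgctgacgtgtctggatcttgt

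The mean level of the members also differed between arrays of one group. Over the 43 measured genes, the mean log2 signal was 9.46, 9.30 and 9.69 on the Runx3-/- arrays and 8.997, 9.50 and 9.11 on the WT arrays. That is 9.48 ± 0.19 in Runx3-/- and 9.20 ± 0.27 in WT (SD, n = 3 each), a difference of 0.28. The groups overlapped, since WT replicate 2 exceeded Runx3-/- replicates 1 and 2. Over all 9545 genes tested, the mean difference was -0.08.

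Runx3-/- replicate 3 was the highest array for 20 of the 41 tested genes and the lowest for 0. WT replicate 1 was the lowest for 18 and the highest for 2. WT replicate 2 was the highest for 9 and above every Runx3-/- array for 10, whereas WT replicate 1 lay below every Runx3-/- array for 24 and WT replicate 3 for 19. These array counts were not made over all genes, so they are not set against the transcriptome. Leaving out WT replicate 2 raised the count of higher members from 4 to 9 of 41 and the median change from 0.22 to 0.41, while over all genes 4.28% were then higher. The 5 genes that joined were Mcm10, Cdc6, Pole, Tk1 and Exo1. Leaving out Runx3-/- replicate 3 lowered the count to 2, Gins2 and Brca1, and the median change to 0.12. Over all genes 5.24% were then higher, so that 2 of 41 is near the background share.

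By role, the difference of the means was 0.66 for deoxynucleotide supply, 0.48 for chromatin copying, 0.36 for licensing and helicase, 0.17 for polymerases and primase, 0.04 for clamp and clamp loader and -0.04 for lagging strand genes. It was 0.87 for repair at forks, over 2 genes. For deoxynucleotide supply the arrays read 10.09, 9.95 and 10.65 in Runx3-/- and 9.11, 9.93 and 9.66 in WT, which did not overlap. Lagging strand genes read 10.91, 11.01 and 11.30 against 10.86, 11.33 and 11.14, fully overlapping.

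**Figure D3:**
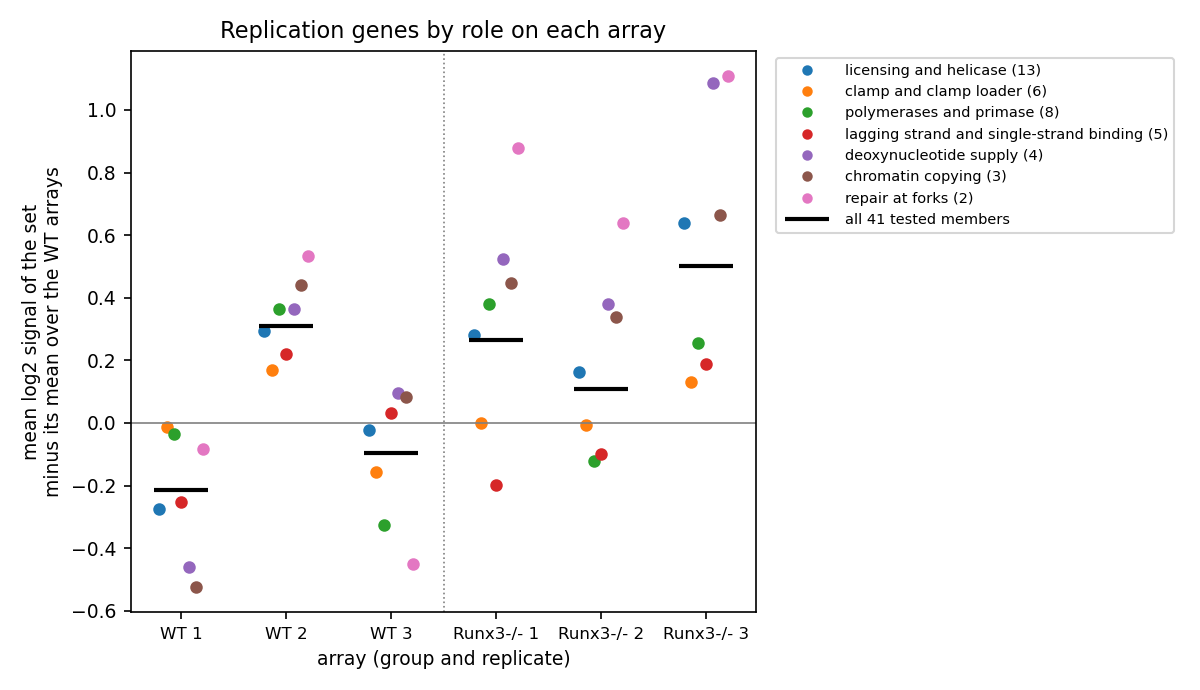
Mean log2 signal of the tested genes of each role on each of the 6 arrays (x axis), given as the distance from that role's mean over the WT arrays (y axis, log2), with a black bar for all 41 tested genes and gene numbers in the key. WT replicate 2 lies above 0 in every role and Runx3-/- replicate 3 holds the highest black bar.

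Further lists of cell cycle genes, none holding a member, were read beside the members. Of 33 other replication genes tested, 3 met the thresholds upward and 1 downward, and none passed BH 5%; the median change was 0.12. Clspn, a checkpoint adaptor at stalled forks, read 8.50, 7.97 and 8.55 in Runx3-/- and 6.44, 7.48 and 5.86 in WT (change 1.75, limma adjusted p = 0.132). Atad5, which helps unload the clamp, changed by 1.56 (limma adjusted p = 0.126) and Tipin, of the fork protection complex, by 0.84 (adjusted p = 0.15). Pole4, a small subunit of polymerase epsilon, was lower by -0.71 (adjusted p = 0.229), and none of the 4 genes overlapped between groups.

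Of 23 other nucleotide synthesis genes, 1 was higher and 2 were lower, with a median change of -0.17. Mthfd2, a mitochondrial folate enzyme, changed by 1.04 (adjusted p = 0.187). Dhodh, of pyrimidine synthesis, changed by -0.94 (adjusted p = 0.139) and Mthfd1, the cytosolic folate enzyme, by -0.80 (adjusted p = 0.225).

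Among 18 tested E2F, Rb and DREAM regulators, 4 were higher, none was lower and the median change was 0.44. E2f8 and E2f7, atypical E2Fs that repress S phase genes, were both higher. E2f8 changed by 1.56 (adjusted p = 0.15) and read 10.23, 9.40 and 10.66 in Runx3-/- and 7.87, 8.96 and 8.76 in WT, with no overlap. Each of the other 3 had WT values under log2 5, Mybl2 on all WT arrays, so their folds are given with values under log2 5 raised to 5. The adjusted p is that of the values as deposited. E2f7 was at least 2.18-fold higher (adjusted p = 0.214) and Foxm1, a driver of late cell cycle genes, at least 2.40-fold higher (adjusted p = 0.155). Mybl2, a partner of Foxm1, was 1.40-fold higher in this way (adjusted p = 0.239), with overlapping groups. That fold is no lower bound, since Runx3-/- replicate 2, at 4.53, was raised to 5 as well.

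Of 17 tested G1 and S phase cyclins, kinases and inhibitors, 5 were higher and none was lower, with a median change of 0.38. Ccna2, the cyclin of S phase and G2, read 9.77, 9.66 and 10.46 in Runx3-/- and 8.42, 9.33 and 8.55 in WT (change 1.20, adjusted p = 0.16), with no overlap. Ccne2, a cyclin of S phase entry, was below log2 5 on all WT arrays and, with those values raised to 5, at least 2.27-fold higher (adjusted p = 0.137). Cdk2, their kinase, changed by 1.03 (adjusted p = 0.292), and the inhibitor Cdkn1a by 1.17 (adjusted p = 0.242).

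Of 30 tested mitosis genes, 20 were higher and none was lower, with a median change of 1.29. Nuf2, a kinetochore protein, read 6.32, 6.93 and 6.80 in Runx3-/- and 5.06, 4.55 and 3.93 in WT, at least 3.17-fold higher with values under log2 5 raised to 5, and was the 1 gene of these lists to pass BH 5% (adjusted p = 0.0436). Prc1 of the spindle midzone changed by 2.18 (adjusted p = 0.0794) and the kinetochore protein Spc25 by 1.37 (adjusted p = 0.127). Ncapg of condensin was at least 3.08-fold higher on the same bound (adjusted p = 0.127). Beside them, the members gave 4 of 41 higher and a median of 0.22. The difference between the lists was not tested.

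**Figure D4:**
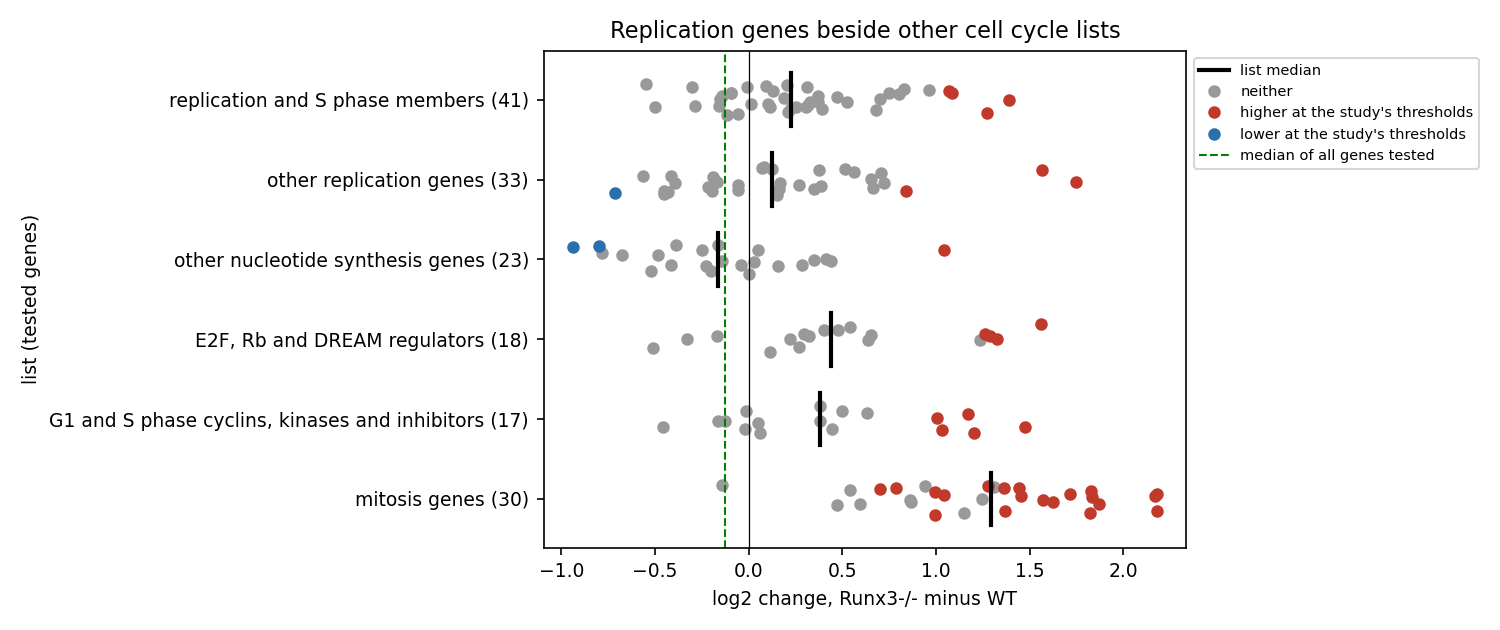
Log2 change (Runx3-/- minus WT, x axis) of each tested gene in the members and in 5 other lists (y axis, number tested in brackets), coloured by call at the study's thresholds, with the list median as a black bar and the median of all genes, -0.13, as a dashed line. The member median is 0.22 and that of the mitosis genes is 1.29; vertical scatter within a list only separates the points.

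Markers of other cells were read beside these results. Of 10 tested basophil and mast cell markers, 7 met the thresholds upward and 2 of these passed BH 5%. The summed linear signal of the 11 measured was 33062 to 49579 on the Runx3-/- arrays and 12094 to 20806 on the WT arrays, with Tpsb2 below log2 5 throughout. The other tested markers, Cma1, Kit and Cd200r3, changed by 0.48, 0.09 and -0.36, and none of them passed. Cma1, whose groups overlapped, had the highest signal of the list on every array and so weighs on these sums. Of 7 tested B cell and plasma cell markers, 3 were higher, with sums of 2724 to 4120 against 964 to 2502, and Pax5 and Sdc1 below log2 5 throughout. Cd79a, 1 of these 3, lay below log2 5 on all WT arrays. Macrophage and monocyte markers gave 2 of 7 higher, Adgre1 and Cd14, with sums of 487 to 9544 against 1766 to 2399. Cd14 reached log2 5 only on Runx3-/- replicate 1, at 5.64, and its groups overlapped. Dendritic cell markers gave 1 of 3 higher, H2-Ab1, with sums of 1410 to 2680 against 268 to 940 and Xcr1 and Siglech below log2 5 throughout. H2-Ab1 had the highest signal of the 3 on every array, so the sums mainly follow it. Flt3 changed by -0.35 and Zbtb46 by 0.44, and neither passed.

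Of 12 tested NKC markers, none was higher and 1, Eomes, was lower, with a median change of 0.00 and sums of 173068 to 194384 against 170480 to 205556. None of 5 tested T cell markers passed in either direction, with sums of 3376 to 3719 against 2918 to 6013 and Cd4, Cd8a, Cd8b1, Cd6 and Trat1 below log2 5 on all arrays. Neutrophil and granulocyte precursor markers gave 1 of 6 lower, Camp, with sums of 313 to 3799 against 273 to 4114 and Elane below log2 5. Camp lay below log2 5 on all Runx3-/- arrays and on WT replicate 3, and its groups overlapped. The 1 tested erythroid precursor marker did not pass, with sums of 48.9 to 101 against 67.7 to 90.4 and Klf1, Alas2, Epor, Ermap and Rhag below log2 5. Platelet and megakaryocyte markers gave 1 of 5 higher and 1 lower, with sums of 2736 to 4164 against 1592 to 4189 and Gp9 below log2 5. The part of other cells in the differences of the replication genes was not tested.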

How the data were processed

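Splenic DX5+ NKC of 3 WT and 3 Runx3-/- mice were measured on 6 arrays. The deposited values are log2 signals of 45101 probe sets, made by the authors with GC-RMA in the Partek software; the submitters' processing notes give no versions. GC-RMA equalises the arrays, so a change in total RNA per cell cannot be seen. The labels and the study's methods name different labelling kits. Gene symbols come from the annotation of the platform, which gives 1 symbol for 34945 probe sets. A gene was read from whichever of its probe sets had the highest mean, and 9545 genes at log2 5 or more on at least 1 array were tested with limma 3.58.1 (lmFit, eBayes) in R 4.3.3, Runx3-/- minus WT, 6 arrays, no covariate, BH over all genes. Log2 5 replaces the study's background level, not given in the sources used here. The fit was tested on simulated data.

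The members and lists were chosen with earlier results of these data known. Array values are given for members at the study's thresholds, for the member with the highest mean signal of each role and for members whose probe sets disagreed in sign or by over 1.5-fold; for each list, up to 4 genes with the smallest p at the thresholds are named. Array values of Mcm4, Prim1, Pole, Pola1, Pola2, Cdc6, Cdt1, Tk1, Rrm1 and Exo1 were added after their values were seen. Signals of different probe sets were set side by side only to choose a probe set or a named member, and in the marker sums. They are not read as relative amounts of transcript. Promoters are RefSeq windows.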

Additional observations from a re-analysis of the deposited data

How the results depend on the processing

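No direction of the members' median or mean reversed in any alternative run. Where only the gene filter, the moderation, the array weights or the block was altered, the mean difference was fixed by construction. The median change was likewise fixed under the block and under trend and robust moderation. Those runs therefore say nothing about these directions. The count of higher members, 4 of 41 in the report, stood beside 4.89% of all genes. It was 7 after median centring (6.57% of all genes) and 6 with trend and robust moderation (5.04%). It was 5 with quantile normalization (5.23%), array weights (6.01%) or the replicate block (5.42%), and 3 of 36 with all probe sets averaged (4.4%). The other alternatives on all arrays gave 4, beside 2.13% to 5.19% of all genes or probe sets tested. Leaving out 1 array gave 2 to 9, beside 4.05% to 7.07% of all genes. The count of lower members was 0, and 2 of 41 with array weights (Cdt1 and Pola2), beside 1210 of 9545 over all genes; leaving out 1 array gave 0 to 1. The median change ran from 0.09 with array weights to 0.41 without WT replicate 2. No member passed BH 5% in any setting. Gins2 and Brca1 were higher in every alternative that tested them, Uhrf1 in all but 1 and Rrm2 in all but 3, as named with those genes. Of 691 gene values under the alternatives, 669 kept their side of the thresholds, 18 newly passed and 4 no longer did. Averaging all probe sets of a gene left 36 members, Brca1 not among them, and gave Gins2 0.87. Same-numbered arrays did not pair: their deviations correlated at 0.07, -0.19 and 0.15, and 1 of 3 Runx3-/- arrays correlated best with its own number. With the replicate number as a block, Tk1 joined the higher members, 0 were lower and 0 passed BH 5%. The median change of 0.22 and the mean difference of 0.28 stayed as they were, since a balanced block cannot alter them. Over all genes, those passing BH 5% went from 58 to 0. The cause of these changes was not tested. The number of arrays limits precision, and signals near log2 5, as for Exo1, Gins2 and Mybl2, follow the background model.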
